A study of Mus musculus with 6 samples.

Results

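The genes described here are 6 matrix metalloproteinases (MMPs), Mmp2, Mmp3, Mmp9, Mmp10, Mmp13 and Mmp14, and 3 tissue inhibitors of metalloproteinases, Timp1, Timp2 and Timp3. They were picked by name, with earlier results of these data known, and each symbol matched 1 of the 55335 mouse gene identifiers in the deposited tables. RNA was sequenced from wild-type bEnd.3 cells, a mouse brain endothelial line immortalised with a polyomavirus oncogene, in 3 samples given mitochondria prepared from primary mouse astrocytes, in culture medium (Mito_T), and 3 samples given that volume of medium with no mitochondria (Ctrl). Both groups were harvested after 24 h of incubation. The study asks about mitochondria that astrocytes hand over to barrier endothelium, and its 1 comparison is mitochondria against control. Nothing in the labels says that samples of a group are separate cultures, so a p-value here covers the spread among these samples, which may be technical.

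MMPs are zinc-dependent proteases that cut collagens, laminins, fibronectin and other proteins of the extracellular matrix. Most are secreted as inactive proenzymes, in which a cysteine of the propeptide blocks the zinc, and they become active once another protease cuts the propeptide. TIMPs bind active MMPs and block them, and TIMP2 also forms a complex with membrane-bound MMP14 that recruits and activates pro-MMP2. In brain vessels, MMPs, above all MMP2, MMP3 and MMP9, are known for degrading basement membrane and tight junction proteins when the barrier opens.

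Mmp3, Mmp10 and Mmp13 lie in 1 cluster of MMP genes, and their proximal promoters are shown because each holds a match to the same motif. The 120 bases before the RefSeq transcription start are given 5′ to 3′ on the plus strand of GRCm38.p6, with capitals marking TGAGTCA or its reverse complement TGACTCA, the consensus site of the AP-1 factors FOS and JUN.
Mmp3, chr9:7445702-7445821: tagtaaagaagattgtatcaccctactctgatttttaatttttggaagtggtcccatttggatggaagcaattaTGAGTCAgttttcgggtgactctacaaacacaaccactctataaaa
Mmp10, chr9:7502222-7502341: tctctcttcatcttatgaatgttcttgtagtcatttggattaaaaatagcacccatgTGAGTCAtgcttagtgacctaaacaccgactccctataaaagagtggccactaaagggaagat
Mmp13, chr9:7272394-7272513: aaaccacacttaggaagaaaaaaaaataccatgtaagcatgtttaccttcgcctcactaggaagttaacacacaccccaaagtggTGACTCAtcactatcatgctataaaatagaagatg

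RefSeq windows reaching from upstream of the start to shortly after it, of equal length for all genes, were at hand for 7 of the 9 genes, Mmp2 and Mmp9 being the others. The AP-1 letters occurred on either strand in 3 of these 7 windows and in 5.20% of the 32851 windows of all genes. The match began 46 bases before the start in Mmp3, 63 bases before it in Mmp10 and 35 bases before it in Mmp13. The same 3 windows held the TATA box letters TATAAA, searched with their reverse complement TTTATA, which 13.6% of all windows held. The ETS letters AGGAAG or CTTCCT occurred in Mmp3, Mmp13, Mmp14, Timp1 and Timp3 and in 35.4% of all windows. In the 7 windows no match to 1 motif overlapped a match to another. A match describes the letters in these windows only.

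The libraries held an estimated 2.23e+07 to 2.75e+07 fragments with mitochondria and 1.74e+07 to 2.14e+07 in the controls. By this estimate depth was higher in every mitochondria library, and its part in the results was not tested. The estimate is approximate, since whole fragments were not recovered from the FPKM. Values are in FPKM, which divides fragments by the length of the transcript and the size of the library and allows levels to be compared between genes. Of the 10 endothelial markers examined, 7, among them Cdh5, Pecam1 and Cldn5, were under 1 FPKM in all 6 libraries. The others were Tie1, Kdr and Esam, and none was called. Tie1 was at 5.62 to 6.16 FPKM with mitochondria and 4.94 to 5.81 FPKM in the controls. Kdr was lower without overlap, at 2.70 to 3.19 FPKM with mitochondria and 3.65 to 4.09 FPKM in the controls. Esam was at 0.997 to 1.79 FPKM with mitochondria and 1.10 to 1.34 FPKM in the controls. The endothelial markers summed to 11.3 to 12.0 FPKM with mitochondria and 11.3 to 12.7 FPKM in the controls. The 11 fibroblast and mural markers, led by Col3a1 and Col1a1, summed to 375 to 414 FPKM with mitochondria and 425 to 461 FPKM in the controls. Among them 6 genes, Col1a2, Dcn, Lum, Cspg4, Rgs5 and Thy1, were under 1 FPKM in every library. Of the 5 fibroblast and mural markers tested, Col1a1 was the 1 called (lower), 3 had a positive and 2 a negative log2 change, and the median was 0.07. Pdgfra was at 22.2 to 23.3 FPKM with mitochondria and 17.9 to 19.3 FPKM in the controls, and Acta2 at 1.96 to 2.39 FPKM with mitochondria and 1.55 to 1.76 FPKM in the controls, both without overlap. The defining markers Cdh5, Pecam1 and Cldn5 were thus near 0 in cells labelled as endothelial, and the part of the other cell types' markers in the results was not tested. In bulk RNA, fewer cells of a type and less RNA per cell cannot be told apart. The 8 astrocyte markers summed to 26.1 to 27.8 FPKM with mitochondria and 13.2 to 47.8 FPKM in the controls, with Aqp4 and Sox9 at 0 in every library. Most of that sum was Gja1, at 24.1, 23.5 and 25.8 FPKM with mitochondria and 45.7, 11.7 and 46.0 FPKM in the controls. Aldh1l1, too low for the test, was at 0.972, 1.15 and 1.06 FPKM with mitochondria and 0.416, 0.455 and 0.302 FPKM in the controls, and Slc1a2 at 0.0744 to 0.169 FPKM with mitochondria and 0.0127 to 0.0683 FPKM in the controls. Both were higher in every library with mitochondria, and these markers were named after their values were seen. The remaining astrocyte markers, Gfap, Slc1a3 and S100b, overlapped between the groups. Their means were 0.128, 0.0522 and 0.944 FPKM with mitochondria and 0.0771, 0.105 and 1.00 FPKM in the controls, in that order. The 8 microglia and macrophage markers summed to 3.42 to 4.24 FPKM with mitochondria and 3.68 to 4.84 FPKM in the controls, with Ptprc and Tyrobp at 0.

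Of the 9 genes, 8 were at 1 FPKM or more in all 6 libraries and were tested, and Mmp9 was below that level in every library. By mean level over the 6 libraries the order was Timp2 (270.5 FPKM), Mmp3 (159), Mmp14 (66.4), Timp3 (32.6), Timp1 (22.5), Mmp13 (18.0), Mmp10 (16.0), Mmp2 (2.76) and Mmp9 (0.340). The libraries of Mmp13 and Mmp10 overlapped in both groups, those of Timp1 and Mmp13 overlapped with mitochondria but not in the controls, and the other neighbours in this order were separate in both. Timp2 was higher than 99.3% of tested genes and Mmp3 higher than 98.4%, while Mmp2 stood above 21.1% of them.

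With mitochondria Mmp3 fell to 0.470 times and Mmp2 to 0.483 times its mean control level, and the other 6 tested genes did not pass the threshold. The comparison was fitted with limma on log2(FPKM + 1) over 12639 genes, and a gene was called at an adjusted p under 0.05. Of the 8 tested genes 2 were called, both lower, where 1.12% of all tested genes were called and 0.649% were called lower. The 2 groups did not overlap in 5 of the 8, 4 lower (Mmp2, Mmp3, Mmp14, Timp2) and 1 higher (Mmp13) with mitochondria. Over all tested genes 21.0% did not overlap, 11.4% lower and 9.62% higher. The median log2 change was −0.24 in these 8 genes and −0.01 in all genes tested. Because the genes were chosen with earlier results of these data known, these shares are descriptions and do not test the family.

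**Figure D1:**
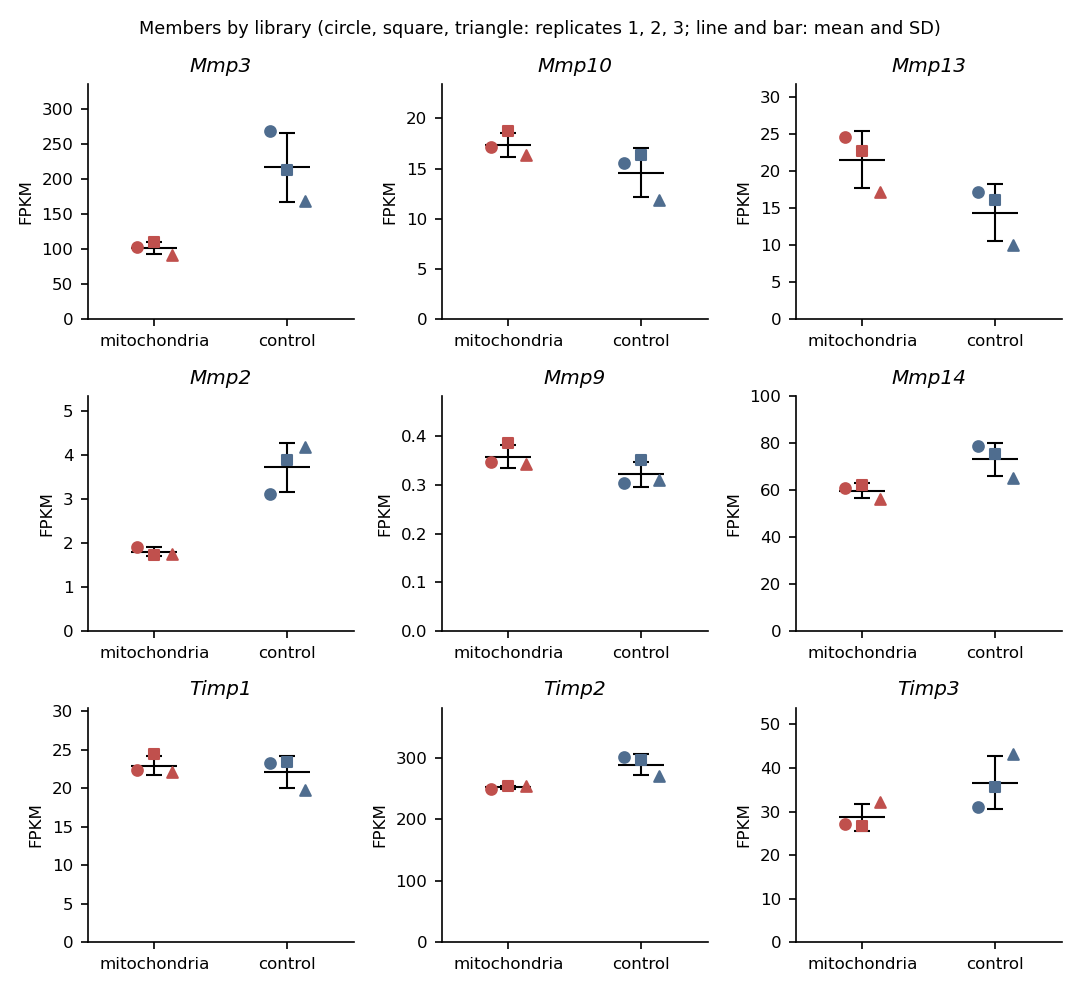
FPKM of the 9 genes in each library, with mitochondria on the left and controls on the right of each panel; circles, squares and triangles are replicates 1, 2 and 3, and lines with bars are the mean and SD. The mitochondria libraries of Mmp3 (92.3 to 109.8 FPKM) and Mmp2 (1.73 to 1.92 FPKM) all lie below the control libraries.

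Mmp3 encodes stromelysin-1, which cuts laminin, fibronectin and proteoglycans and activates other pro-MMPs. It is gene ENSMUSG00000043613 on chromosome 9, 7445822 to 7455975, plus strand of GRCm38. It was at 103, 109.8 and 92.3 FPKM in mitochondria replicates 1, 2 and 3, against 268, 213 and 169 FPKM in control replicates 1, 2 and 3. Every mitochondria library was below every control library, and the spread was wider in the controls, with a coefficient of variation of 8.71% with mitochondria and 22.8% in the controls. The means were 102 ± 8.86 FPKM with mitochondria and 216 ± 49.4 FPKM in the controls (SD, n = 3 each), and the log2 change was −1.06 (SE 0.16, 95% interval −1.45 to −0.68, limma adjusted p = 0.0409). The call held in 1 of the 6 fits that left out a library, that without control replicate 3, and the limma adjusted p in those 6 fits ran from 0.0222 to 0.161. Without a filter on low values, which adds genes to the adjustment, it was 0.142.

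Mmp2 encodes gelatinase A, which cuts type IV collagen of the basement membrane and denatured collagen. The gene (ENSMUSG00000031740) is on chromosome 8, 92827291 to 92853420, plus strand. Its levels were 1.92, 1.73 and 1.76 FPKM in mitochondria replicates 1 to 3 and 3.11, 3.89 and 4.18 FPKM in control replicates 1 to 3. All mitochondria libraries were below all control libraries, and unlike Mmp3, which was lowest in control replicate 3, Mmp2 was highest there. Means were 1.80 ± 0.1002 FPKM with mitochondria and 3.73 ± 0.553 FPKM in the controls (SD, n = 3 each). The log2 change on the log2(FPKM + 1) scale, which understates it for a gene this low, was −0.75 (SE 0.10, 95% interval −0.98 to −0.51, limma adjusted p = 0.0288), and −1.03 with a pseudocount of 0.01. Mmp2 kept its call in 1 of the 6 fits, that without control replicate 1, with limma adjusted p-values from 0.0209 to 0.124 over the 6, and 0.105 without a filter on low values.

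Mmp14 encodes MT1-MMP, the membrane-bound activator of pro-MMP2 and itself a collagenase (chromosome 14, 54431612 to 54445364, plus strand). It was at 60.8, 62.3 and 56.2 FPKM with mitochondria and at 78.7, 75.4 and 65.2 FPKM in the controls. The mitochondria libraries were all lower, by a smaller margin than those of Mmp2 and Mmp3. The log2 change was −0.28 (95% interval −0.48 to −0.09), which did not pass the threshold (limma adjusted p = 0.197). Per library, Mmp14 FPKM divided by Mmp2 FPKM was 31.7 to 36.1 with mitochondria and 15.6 to 25.3 in the controls.

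Mmp13 encodes collagenase-3, which cuts fibrillar collagens (chromosome 9, 7272514 to 7283331, plus strand). It was at 24.6, 22.8 and 17.3 FPKM with mitochondria and at 17.2, 16.1 and 10.0 FPKM in the controls. The groups did not overlap, with mitochondria replicate 3 just above control replicate 1, but replicate 3 was the lowest in both groups and the spread was broad. The log2 change was 0.57 (95% interval 0.06 to 1.07) and was not called (limma adjusted p = 0.305). Without control replicate 3 it was 0.34.

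Mmp10 encodes stromelysin-2, a close relative of stromelysin-1 (chromosome 9, 7502352 to 7510240, plus strand). It was at 17.1, 18.7 and 16.3 FPKM with mitochondria and at 15.6, 16.4 and 11.8 FPKM in the controls, and the groups overlapped. Its log2 change was 0.25 (95% interval −0.04 to 0.53, limma adjusted p = 0.423). Mmp3, Mmp10 and Mmp13 were each lowest in replicate 3 of both groups, as were Mmp14 and Timp1. Mmp3 FPKM divided by Mmp10 FPKM was 6.01, 5.87 and 5.65 in mitochondria replicates 1 to 3, against 17.17, 12.996 and 14.28 in control replicates 1 to 3. Mmp3 divided by Mmp13 was 4.18 to 5.34 with mitochondria and 13.2 to 16.9 in the controls. Each of these ratios contains Mmp3 and differed between the groups without overlap, which does not extend to the proportion of Mmp10 to Mmp13.

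Mmp9 encodes gelatinase B, the inducible gelatinase often followed in barrier injury (chromosome 2, 164940780 to 164955850, plus strand). Its level was 0.347, 0.387 and 0.343 FPKM with mitochondria and 0.304, 0.351 and 0.310 FPKM in the controls, too low for the test. The values correspond to about 17 to 30 fragments per library on its longest annotated transcript, and the groups overlapped.

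Reads of Mmp3 and Mmp10 are not fully separable, because the genes resemble each other. Their coding sequences, 1437 and 1428 bases without the stop codon, were identical at 79.8% of 1423 aligned bases, against 63.8% of 1388 for Mmp3 and Mmp13. Of the 31-base words of the Mmp3 transcript, 14.6% also occur in other genes, and 202 of its 1771 words occur in Mmp10, which is 11.9% of the words of Mmp10. The longest identical run of the coding sequences is 104 bases, 86 in exon 2 and 18 in exon 3 of Mmp3 (chr9:7447092-7447285, plus strand, intron left out). It is printed because a read inside it cannot be assigned to either gene, and the 21 bases in capitals encode the cysteine switch motif that keeps the proenzyme inactive.
Mmp3 and Mmp10: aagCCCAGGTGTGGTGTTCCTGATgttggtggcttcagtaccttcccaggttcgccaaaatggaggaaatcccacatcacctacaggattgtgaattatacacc

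Mmp2, Mmp9, Mmp13, Timp1 and Timp2 had no 31-base word in another gene, while Mmp14 shared 2.26% and Timp3 0.706% of their words. Mmp3 and Mmp10 differed in the sign of their log2 change, and the part of shared reads in either value was not tested.

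**Figure D2:**
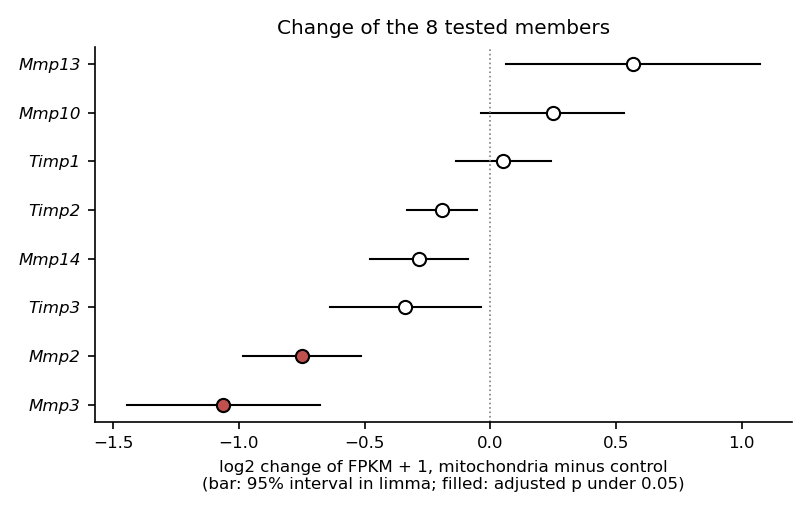
Log2 change of FPKM + 1, mitochondria minus control, of the 8 tested genes; bars are 95% intervals in limma and filled points have an adjusted p under 0.05. Mmp3 (−1.06) and Mmp2 (−0.75) are the filled points, and Mmp13 (0.57) has the widest interval.

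Timp2, which inhibits MMPs and takes part in the activation of pro-MMP2, was the highest of the 9 genes. It is on chromosome 11, 118301069 to 118355740, minus strand, and overlaps Cep295nl on the same strand, which averaged 0.455 FPKM with mitochondria and 0.467 FPKM in the controls. Its levels were 249, 254 and 253 FPKM with mitochondria and 301, 295 and 270.2 FPKM in the controls. The groups did not overlap, and the mitochondria libraries lay within a coefficient of variation of 0.971%, against 5.65% in the controls. The log2 change of −0.19 (95% interval −0.33 to −0.05) was not called (limma adjusted p = 0.211). Timp2 FPKM divided by Mmp2 FPKM was 130.2 to 147 with mitochondria and 64.7 to 96.7 in the controls.

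Timp3, an inhibitor that stays bound to the matrix and also blocks several ADAM and ADAMTS proteases (chromosome 10, 86300372 to 86349506, plus strand), was at 27.1, 26.7 and 32.1 FPKM with mitochondria and at 31.1, 35.7 and 43.1 FPKM in the controls. Mitochondria replicate 3 exceeded control replicate 1, so the groups overlapped. Its log2 change was −0.34 (95% interval −0.64 to −0.04, limma adjusted p = 0.307).

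Timp1, the soluble inhibitor that cytokines and growth factors induce (chromosome X, 20870166 to 20874735, plus strand), was at 22.4, 24.4 and 22.1 FPKM with mitochondria and at 23.3, 23.4 and 19.7 FPKM in the controls. The groups overlapped, and the 95% interval of its log2 change ran from −0.14 to 0.24 around 0.05 (limma adjusted p = 0.825). The sign of that change turned without control replicate 3, to −0.02. Timp1 and Timp3 each lie across from a synapsin gene on the opposite strand, Syn1 and Syn3, and the sources used here do not say whether counting used strand. Syn1 was at 2.49 FPKM with mitochondria and 3.02 FPKM in the controls, and Syn3 at 0.189 FPKM with mitochondria and 0.150 FPKM in the controls.

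Summed over the 6 MMPs, the libraries held 208, 216 and 184 FPKM with mitochondria, against 382, 325 and 261 FPKM in the controls. Mmp3 made up 49.6% to 50.9% of that sum with mitochondria and 64.9% to 70.0% in the controls. Without Mmp3 the MMP sums overlapped, at 91.9 to 106 FPKM with mitochondria and 91.5 to 115 FPKM in the controls. The 3 TIMPs summed to 299, 305 and 308 FPKM with mitochondria and to 355, 354 and 333 FPKM in the controls, of which Timp2 was 82.4% to 83.4% with mitochondria and 81.1% to 84.7% in the controls. The ratio of summed TIMP to summed MMP transcripts averaged 1.51 ± 0.142 with mitochondria and 1.10 ± 0.175 in the controls (SD, n = 3 each). Its ranges, 1.41 to 1.67 with mitochondria and 0.929 to 1.28 in the controls, did not overlap. The higher ratio rests on Mmp3 alone, since the TIMP sum was lower with mitochondria and the MMP sum without Mmp3 overlapped. The ratio describes transcripts, and proteins and their activity were not measured.

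**Figure D3:**
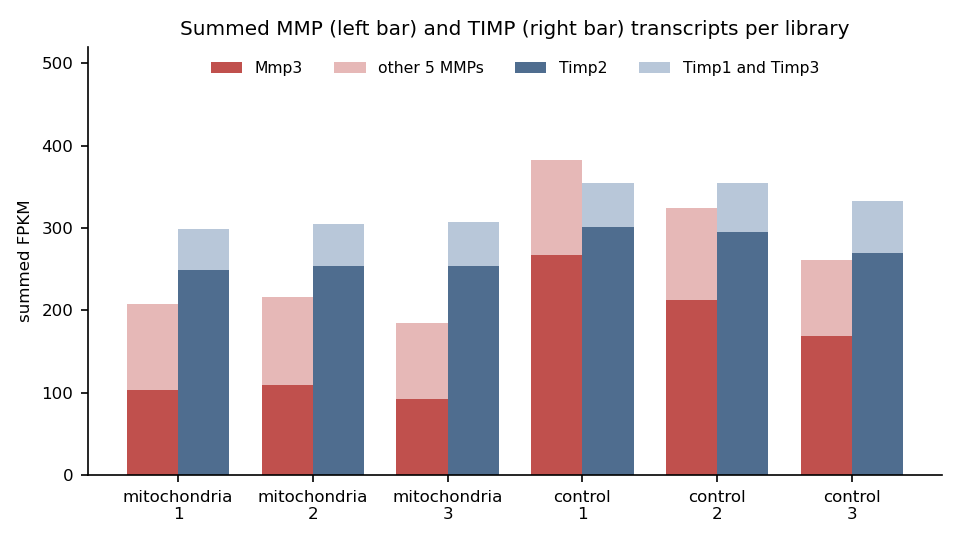
Summed FPKM per library of the 6 MMPs (left bar, Mmp3 dark) and the 3 TIMPs (right bar, Timp2 dark), with the mitochondria libraries on the left. MMP sums are 184 to 216 FPKM with mitochondria and 261 to 382 FPKM in the controls, and most of that gap lies in the Mmp3 segment.

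The cluster on chromosome 9 that holds Mmp3, Mmp10 and Mmp13 contains 10 MMP genes within 427 kb (7272514 to 7699585 on GRCm38). Its order is Mmp13, Mmp12, Mmp1b, Mmp3, Mmp1a, Mmp10, Mmp8, Mmp27, Mmp20 and Mmp7. Mmp10 starts 56.5 kb after Mmp3, and Mmp13 starts 173 kb before it. The 7 other genes of the cluster were low, Mmp27 reaching 1.20 FPKM in its highest library and the remaining 6 at most 0.144 FPKM. The expressed genes of the cluster were separated by silent or nearly silent ones, and Mmp20 was at 0 in every library.

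Of the 17 MMP genes outside the 9, 5 were tested and none was called in limma, with 3 at an unadjusted p under 0.05, and 12 were under 1 FPKM in every library. Mmp19, a protease of basement membrane proteins and the highest of the 17, was at 36.0, 36.9 and 39.1 FPKM with mitochondria and at 48.6, 46.2 and 44.0 FPKM in the controls. The groups did not overlap, and the log2 change of −0.30 had a limma adjusted p of 0.0760 (0.0488 with quantile normalization). Of 5 other inhibitors, Reck, a membrane-anchored inhibitor, was the 1 tested, at 3.33 ± 0.354 FPKM with mitochondria and 3.32 ± 0.0439 FPKM in the controls (SD, n = 3 each, limma adjusted p = 0.999). A2m and Tfpi2 were at 0 in every library, and Timp4 was at most 0.355 FPKM, all 3 named after their values were seen.

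The ADAM and ADAMTS metalloproteinases, several of which TIMP3 blocks, had 15 of 25 genes tested and none called in limma. Of the tested genes 3 were at an unadjusted p under 0.05 in limma, and the median log2 change was −0.06. Adamts1, which cuts the proteoglycans versican and aggrecan, had the smallest p. It was at 81.3, 83.3 and 58.0 FPKM with mitochondria and at 124, 131 and 100.3 FPKM in the controls, without overlap. Its difference on the log2 scale was −0.68 with an SE of 0.16, which was not called (adjusted p = 0.132 in limma).

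Of 20 matrix proteins that MMPs cut, 14 were tested. In limma 5 were called lower and none higher, where 0.649% of all tested genes were called lower. Among the 14, 12 had a negative and 2 a positive log2 change. Col1a1, a chain of fibrillar type I collagen, was at 83.9 ± 3.19 FPKM with mitochondria and 138 ± 2.45 FPKM in the controls, and Fbln5, a fibulin needed to build elastic fibres, at 5.34 ± 0.746 FPKM with mitochondria and 13.9 ± 0.688 FPKM in the controls. Col1a1 is also one of the fibroblast and mural markers. Sparc, a collagen-binding matricellular protein, was at 234 ± 1.91 FPKM with mitochondria and 311 ± 12.4 FPKM in the controls, and Lama4, a laminin chain of endothelial basement membrane, at 10.4 ± 0.855 FPKM with mitochondria and 15.1 ± 0.627 FPKM in the controls (SD, n = 3 each). Fbn1, fibrillin-1, named after its values were seen, completes the 5 at 12.5 ± 0.753 FPKM with mitochondria and 25.1 ± 5.04 FPKM in the controls. The limma adjusted p-values of the 5 lay between 0.00547 and 0.0382. Col1a1 and Fbln5 were called in each of the 6 fits that left out a library, Sparc in 1 (without control replicate 3), Fbn1 in 1 (without control replicate 1) and Lama4 in none. The type IV collagen chains Col4a1 and Col4a2, substrates of MMP2, were not called and were named after their values were seen. Col4a1 was at 172 ± 19.7 FPKM with mitochondria and 194 ± 15.0 FPKM in the controls, and Col4a2 at 109 ± 4.70 FPKM with mitochondria and 119.7 ± 4.87 FPKM in the controls. The median log2 change of the list was −0.15.

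AP-1, ETS and other factors known to act on MMP promoters had 14 of 16 genes tested, 3 called lower and none higher in limma. Over all tested genes 0.649% were called lower. Fos was at 1.92, 2.16 and 2.21 FPKM with mitochondria and at 3.19, 3.51 and 3.44 FPKM in the controls (limma adjusted p = 0.0324). Fosl1 was at 6.10, 5.14 and 5.21 FPKM with mitochondria, against 7.88, 8.02 and 7.84 FPKM in the controls (limma adjusted p = 0.0437). Egr1 was at 12.0, 12.4 and 9.60 FPKM with mitochondria, against 26.3, 25.5 and 18.2 FPKM in the controls (limma adjusted p = 0.0461). Fos, Fosl1 and Egr1 differed between groups without overlap, Fos and Fosl1 being AP-1 subunits and Egr1 a zinc finger factor. The other AP-1 subunits tested were not called and were named after their values were seen. Fosl2, the highest FOS gene, was higher without overlap, at 25.1 to 27.8 FPKM with mitochondria and 21.9 to 24.7 FPKM in the controls (limma adjusted p = 0.218). Junb was lower without overlap (limma adjusted p = 0.136), and Jun and Jund overlapped. Fos and Fosl1 were called in none of the 6 fits without a library, and Egr1 in 1 (without control replicate 3). The list's median log2 change was −0.06. Mmp10 and Mmp13, whose promoter windows hold the AP-1 letters as Mmp3 does, had positive log2 changes that were not called. A link between these factors and the 3 genes was not tested.

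Of 9 cytokines and receptors that induce MMP genes, 4 were tested and none was called in limma, with 1 at an unadjusted p under 0.05 and a median log2 change of 0.06. Tnf, Il1b and Osm were at 0 in every library. Il1r1, the signalling receptor of interleukin-1, had the smallest p and averaged 7.04 ± 0.274 FPKM with mitochondria and 5.95 ± 0.366 FPKM in the controls (SD, n = 3 each, limma adjusted p = 0.217).

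**Figure D4:**
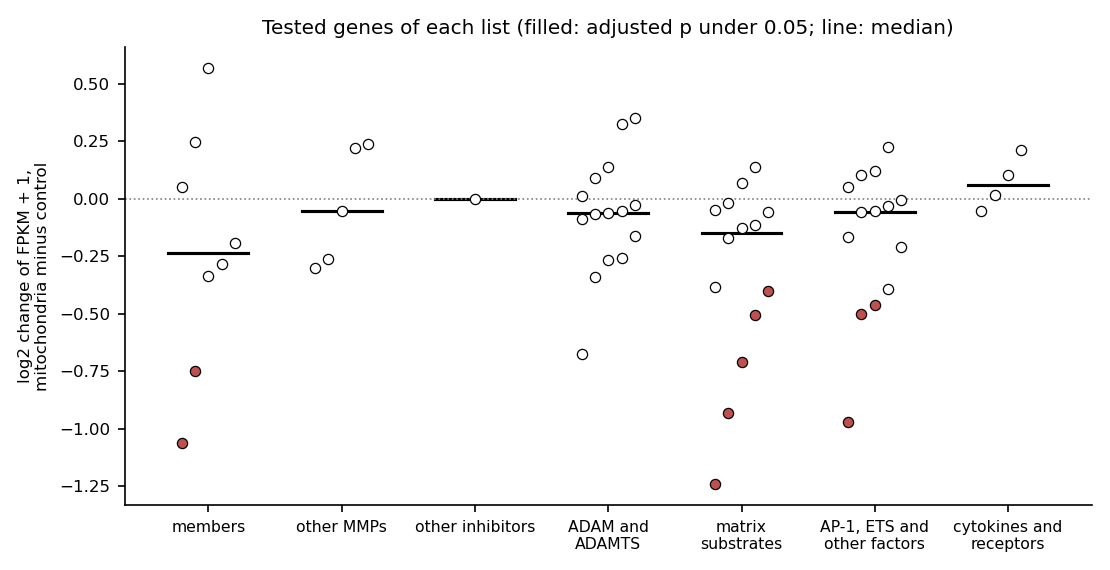
Log2 change of FPKM + 1, mitochondria minus control, of the tested genes of each list; filled points have an adjusted p under 0.05 in limma and lines are medians. All filled points lie below 0, from −0.40 (Sparc) to −1.24 (Fbln5).

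The genes whose pattern over the 6 libraries was most like that of Mmp3 were Fbln1, a matrix fibulin (Pearson's r of log2 values 1.000, Spearman's rho 1.00), Has2, the hyaluronan synthase (0.995, 1.00), Stom (0.995, 0.943), Cd36 (0.992, 0.943) and Gsta4 (0.992, 0.943). Those most like Mmp2 were Adm (0.996, 1.00), Uck2 (0.994, 0.943), Adcy4 (0.993, 1.00), Calcrl (0.992, 0.771) and Mitf (0.991, 0.943). For Timp2 they were Xpnpep1 (1.000, 0.943), Lrrn4cl (0.997, 1.00), Slc25a25 (0.993, 0.943), Tmem127 (0.992, 1.00) and Snx16 (0.991, 0.829). These correlations are over 6 libraries that fall into 2 groups, were the highest among the 12639 genes once predicted and unnamed genes were left out, share library and depth, and are descriptions only. Of these 15 genes, Fbln1, Has2, Gsta4 and Calcrl were called in limma.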

How the data were processed

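Strand-specific mRNA libraries of 3 samples with mitochondria and 3 controls were used. The authors deposited 1 column per library, read here as FPKM from the values (not whole, summing to 281433 to 297838), since the headers name no unit. The submitters' processing notes list StringTie 1.3.1c, STAR 2.5.3a, FastQC 0.11.5 and the build GRCm38 (mm10), with no settings. Symbols and positions came from GENCODE M21 on GRCm38, which held 55154 of the 55335 identifiers, and promoter sequences from RefSeq on GRCm38.p6. Fragments per library were estimated from the worth of 1 fragment in genes with a single transcript.

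The test was limma 3.58.1 (R 4.3.3) with a single group term, applied to log2(FPKM + 1) of the 12639 genes that reached 1 FPKM in 3 libraries, with trend and robust empirical Bayes, two-sided tests and Benjamini-Hochberg adjustment over all genes tested. The code was tested on simulated data. No pair of libraries was identical, with at most 0.0237% of tested genes equal.

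The members and lists were chosen with earlier results of these data known. One related list is not reported here. The text names all 9 genes, for each list at most 4 called genes in order of p (with no call, the gene of lowest p), and the 5 genes most correlated with each called member and with the highest member. Settings varied were the pseudocount, the filter, the scaling, the variance model, a block for the replicate number and the omission of each library.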

Additional observations from a re-analysis of the deposited data

How the results depend on the processing

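Of the 9 genes 2 were called, of the listed related genes 8, and of all genes 141. Without a filter on low values these counts were 0, 2 and 13. With a mean of at least 5 FPKM required, Mmp2 was no longer tested and 1 of the 9 genes was called. With the replicate number as a block, 0 of the 9 genes, 5 of the listed genes and 56 of all genes were called, and the limma adjusted p was 0.0512 for Mmp3 and 0.0619 for Mmp2. Mmp13, higher with mitochondria, had a limma adjusted p of 0.0568 in that fit. With this block Adamts1 was called (limma adjusted p = 0.0321). The labels do not say that the numbers mark shared cultures. Deviations of same-numbered libraries correlated at 0.102, 0.046 and 0.3, the last, for replicate 3, being the highest of all pairs. Not every library correlated best with its own number. These values cannot tell whether same-numbered samples share a culture or a batch. Leaving out each library in turn gave 0 to 1 calls among the 9 genes, 2 to 4 (without control replicate 3) among the listed genes and 15 (without mitochondria replicate 1) to 84 (without control replicate 1 or 3) among all genes. The cause of these differences was not tested. The other pseudocounts, TMM, quantile normalization, TPM and plain empirical Bayes kept 2 calls among the 9 genes. The log2 change of Timp1 ran from −0.0241 (without control replicate 3) to 0.0919 in the fits without a library. That of Reck, −0.00, turned to 0.00736 with TMM and 0.00457 with quantile normalization, and ran from −0.0393 to 0.0690 in the fits without a library, above 0 without control replicate 2, control replicate 3 or mitochondria replicate 3. Of the 9 genes, none but Timp1 changed direction in any fit run. Without any 1 library the ratio of summed TIMP to summed MMP, which rests on Mmp3, stayed 0.322 to 0.497 higher with mitochondria. Whole fragments were not recovered from the FPKM, so depth per gene is approximate, at about 119 to 275 fragments per library for Mmp2 and 4054 to 8388 for Mmp3.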
